A study of Homo sapiens with 32 samples.

Results

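The cultures described here are SK-N-BE(2) cells, a human neuroblastoma line with an amplified MYCN gene, that had been exposed to 20 μM cannabidiol (CBD) for 6 h or 12 h. They are 8 of the 32 samples of an RNA-Seq time course, 4 samples at each of these 2 times, and were chosen by treatment and time alone. The 12 h samples were compared with the 6 h samples over all genes. The 8 samples that had been given vehicle, 0.1% ethanol, for the same hours serve as the reference for change with time in culture. All 16 came from the same line, plated in 6-well dishes the day before treatment, and the only agents the labels name are CBD and ethanol. The line is a single established tumour line grown on plastic, so the values describe these cells and no other neuroblastoma.

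Several transcript systems named below report on the state of the cell. Metallothioneins are small cysteine-rich proteins that bind zinc and copper. Their genes and SLC30A1, the zinc exporter of the plasma membrane, are switched on by the zinc-sensing factor MTF1 through metal response elements. SLC39A10, a zinc importer of the plasma membrane, is a gene that MTF1 represses when zinc is high. Genes of sterol and fatty acid synthesis are driven by the SREBP factors, which are released from the endoplasmic reticulum when membrane sterol is low. HSPA1A, HSPA1B and DNAJB1 are cytosolic chaperones driven by HSF1 when proteins misfold, and HSPA5, also called BiP, is the main chaperone of the endoplasmic reticulum lumen.

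Promoter sequences are given for 5 genes whose transcripts fell between 6 and 12 h, to show the elements named above. They are the 250 bases before the RefSeq start on GRCh38.p14, read 5′ to 3′ on the strand of the gene. In the first 3, capitals mark the metal response element letters TGCACNC or TGCGCNC on either strand. In HSPA5, capitals mark CCAAT, 9 bases and CCACG, an ER stress element, and in HSPA1B they mark GAANNTTC, the core of a heat shock element.
MT2A, chr16:56608334-56608583, plus strand: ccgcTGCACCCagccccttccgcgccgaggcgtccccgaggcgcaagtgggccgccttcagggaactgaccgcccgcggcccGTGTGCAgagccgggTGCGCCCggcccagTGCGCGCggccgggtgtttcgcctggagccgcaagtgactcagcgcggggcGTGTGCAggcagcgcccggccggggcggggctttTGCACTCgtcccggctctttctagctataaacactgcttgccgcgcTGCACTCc
MT1X, chr16:56682220-56682469, plus strand: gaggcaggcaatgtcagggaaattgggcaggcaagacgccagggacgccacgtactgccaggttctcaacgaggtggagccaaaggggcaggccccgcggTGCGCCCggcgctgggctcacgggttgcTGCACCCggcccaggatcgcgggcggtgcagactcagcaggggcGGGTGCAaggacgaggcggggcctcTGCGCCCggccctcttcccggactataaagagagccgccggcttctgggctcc
SLC30A1, chr1:211579162-211579411, minus strand: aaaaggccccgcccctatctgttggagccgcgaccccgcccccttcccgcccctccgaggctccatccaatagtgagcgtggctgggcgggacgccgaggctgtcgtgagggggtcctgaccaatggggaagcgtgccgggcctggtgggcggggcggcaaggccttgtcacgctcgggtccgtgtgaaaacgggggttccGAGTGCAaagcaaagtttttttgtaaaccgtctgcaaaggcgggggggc
HSPA5, chr9:125241344-125241593, minus strand: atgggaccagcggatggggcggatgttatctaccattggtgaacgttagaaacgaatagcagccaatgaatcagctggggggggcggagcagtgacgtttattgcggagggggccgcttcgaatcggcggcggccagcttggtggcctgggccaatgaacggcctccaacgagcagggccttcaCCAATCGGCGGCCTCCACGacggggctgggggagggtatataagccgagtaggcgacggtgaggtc
HSPA1B, chr6:31827488-31827737, plus strand: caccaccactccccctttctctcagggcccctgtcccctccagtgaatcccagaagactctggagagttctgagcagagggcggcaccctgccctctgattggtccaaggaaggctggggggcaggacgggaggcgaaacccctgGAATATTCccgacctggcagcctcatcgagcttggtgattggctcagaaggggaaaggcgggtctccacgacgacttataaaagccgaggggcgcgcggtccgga
The metal response letters stood at 7 places before the start of MT2A, at 4 before MT1X and at 1 before SLC30A1. Over the 300 bases from 250 before to 50 after the start, 29.3% of all 27305 promoters held them at least once and 0.352% at 4 or more places. The full window held them in each of the 3 metallothioneins with a promoter sequence (MT2A, MT1X and MT1H) and in 4 of 15 zinc transporter genes, namely SLC30A1, SLC30A6, SLC39A6 and SLC39A3. They were not in the window of SLC39A10. The ER stress element stood in 6 of 22 endoplasmic reticulum genes (CANX, HSPA5, HSP90B1, CALR, XBP1 and CRELD2), against 0.0806% of all promoters. The heat shock core stood in 7 of 18 heat shock genes, against 6.87% of all, and was in HSPA1A and HSPA1B but not in DNAJB1. The sterol response letters TCACNCCAC stood in 0 of 16 sterol synthesis genes, 0 of 13 fatty acid genes and 1 of 7 genes of SREBP feedback (SREBF2), against 1.15% of all. These matches describe letters only.

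Expression was read as FPKM, reads scaled for the length of the transcript and the depth of the sample, so read counts were not known. Relative depth, estimated from the steps between the lowest values, was 0.934 to 1.07 in the 4 samples at 6 h and 0.773 to 1.01 at 12 h, which differed by less than the samples spread (p = 0.343, exact permutation test, two-sided; the smallest p possible with 4 against 4 samples is 0.0286). Replicate 1 at 12 h had the lowest relative depth, 0.773, of the 32 samples and stood farthest of the 16 samples on the second principal component, which held 9.2% of the variance. Replicate 2 at 6 h stood apart in a different way, since it was the highest of the 8 samples for all 7 metallothioneins tested. Counts that rest on these samples are also given without them. All 10 markers of adrenergic neuroblastoma, MYCN, HAND2 and GATA3 among them, had a mean of at least 1 FPKM, with a summed level of 3820 to 3941 FPKM at 6 h and 4055 to 4134 at 12 h. MYCN, which rose by 0.25, made up the increase, and the other 9 markers summed to 1928 to 2032 FPKM at 6 h and 1826 to 1895 at 12 h, lower without overlap. Of markers of other cells, 0 of 6 for Schwann cells, 0 of 6 for leukocytes, 1 of 6 for epithelium, 4 of 7 for fibroblasts and 5 of 16 for mesenchymal-type neuroblastoma reached 1 FPKM. The fibroblast sum was 72.6 to 75.3 FPKM at 6 h and 73.9 to 75.6 at 12 h, and the mesenchymal sum 455 to 474 and 468 to 507, the 2 times overlapping in each of these lists. VIM, of the mesenchymal list, and PDGFRB, of the fibroblast list, rose by 0.25 and 0.21. VIM rose in vehicle too, from 203 to 207.6 FPKM at 6 h up to 220.6 to 234.6 at 12 h. Other members went the opposite way. TWIST1, of the mesenchymal list, and DCN, of the fibroblast list, were lower in CBD at 12 h than at 6 h without overlap. The median changes of the mesenchymal and fibroblast lists were 0.0034 and 0.0337. The epithelial sum was 2.34 to 3.10 FPKM at 6 h and 3.20 to 3.69 at 12 h without overlap, and EPCAM rose by 0.29. The Schwann and leukocyte sums were at most 1.85 and 1.29 FPKM. The part of these markers in the results was not tested. In these bulk samples, fewer cells of a kind and less RNA per cell cannot be told apart.

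Between 6 and 12 h of CBD, 4 of 7 metallothioneins, the zinc exporter SLC30A1 and the chaperones HSPA1A, HSPA1B, DNAJB1 and HSPA5 fell. Over the same hours most transcripts of sterol and fatty acid synthesis rose, and most of those of DNA replication fell. With limma on log2(FPKM + 1) and a Benjamini-Hochberg adjusted p under 0.01, 3004 of the 12621 genes tested were called, 23.8% of all (5647 at an unadjusted p under 0.05). Of these, 1481 genes (11.7% of all tested) were higher at 12 h and 1523 (12.1%) were lower. Most differences were small. The median absolute log2 difference of the called genes was 0.17, and 38 genes reached 0.5, of which 20 rose and 18 fell. The median over all genes was -0.0031. The CBD values at the 2 times did not overlap in 3831 of the 12621 genes tested and in 2729 of the 3004 called. Lack of overlap was also required of the 12 largest rises and falls named below, so it does not set them apart. In the vehicle cultures over the same hours 615 genes (4.87%) were called, 407 higher (3.22%) and 208 lower (1.65%). A gene was called in both treatments and in the same direction 431 times, which is 14.3% of the CBD calls and 70.1% of the vehicle calls. The change from 6 to 12 h differed between CBD and vehicle for 294 genes (2.33%), 181 more positive with CBD (1.43%) and 113 more negative (0.895%). With only the 8 samples compared in the fit, 1452 genes were called in CBD and 132 in vehicle. Without CBD 12 h replicate 1, 2309 were called in CBD and 183 differed from vehicle, and the vehicle count was 328, 401 and 390 without vehicle 6 h replicate 1, vehicle 12 h replicate 3 and vehicle 12 h replicate 4.

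Part of the 38 genes of at least 0.5 belonged to the lists described here. Of the 18 that fell, 8 were metallothionein, zinc export or chaperone genes with an absolute change from 0.66 to 1.67: MT1E, MT1X, SLC30A1, MT1M, HSPA1B, HSPA5, MT2A and HSPA1A, and DNAJB1 and SDF2L1 were 2 further chaperone genes, at -0.61 and -0.50. Of the 20 that rose, HMGCS1, MVD, LSS and FDFT1 belong to sterol synthesis, and ACSS2 makes acetyl-CoA from acetate. FABP3, a fatty acid binding protein, and SLC39A10 were the 2 genes besides short RNA entries that rose by 1 or more. The 4 short RNA entries among the 38 (MIR7974, MIR8072, RNU86 and MIR7111) are not measured well in libraries of this kind and are not described.

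**Figure D1:**
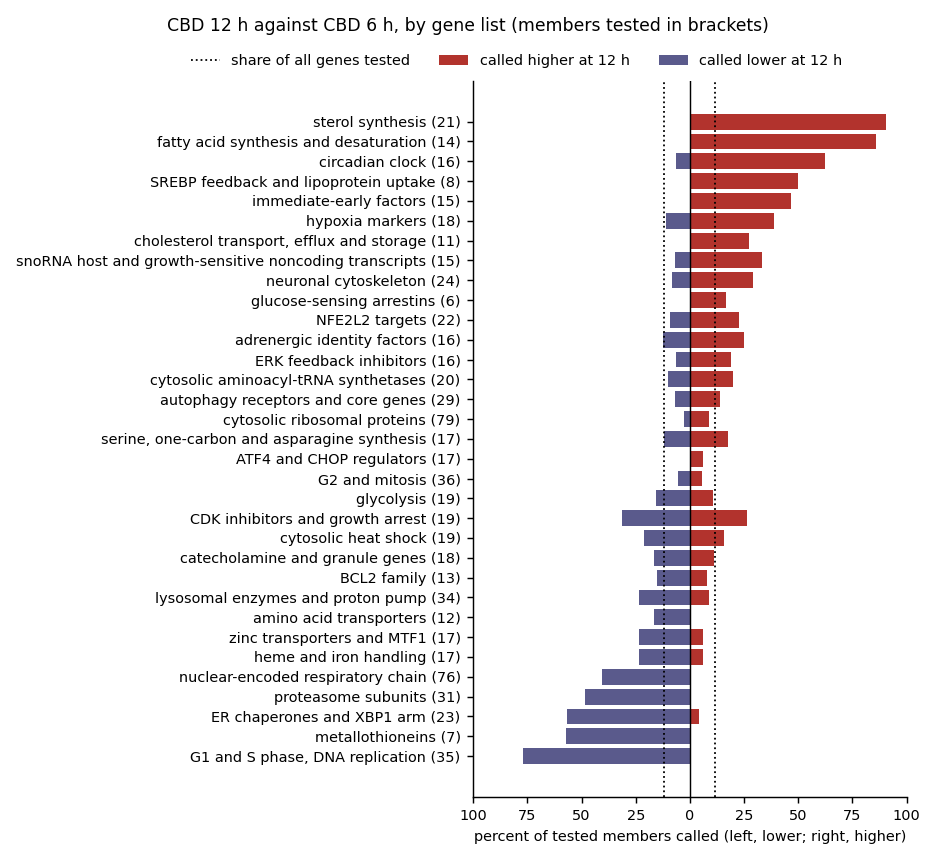
Percent of the tested members of each of 33 gene lists that were called at an adjusted p under 0.01 between CBD at 6 h and at 12 h (x axis, lower to the left and higher to the right; the number tested is in brackets). Dotted lines mark the shares over all genes tested, 12.1% lower and 11.7% higher. Sterol synthesis (19 of 21 higher) and DNA replication (27 of 35 lower) lie at the 2 ends.

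The metallothioneins with calls were lower at 12 h than at 6 h and above vehicle at both times. MT1X (chr16:56716382-56718108 on GRCh37, as for the gene positions below) had 155, 350.1, 198 and 149 FPKM in replicates 1 to 4 at 6 h, and 69.0, 76.2, 75.9 and 65.0 at 12 h. Every 6 h sample was higher than every 12 h sample. The difference was -1.47 on the log2 scale (standard error 0.183, adjusted p = 8.85e-07 from limma), and the vehicle samples held 7.22 to 7.59 FPKM at 6 h and 6.13 to 7.39 at 12 h. MT1E had 50.7, 157, 67.5 and 49.2 FPKM at 6 h and 20.3, 24.1, 26.6 and 17.5 at 12 h, against at most 0.31 in vehicle. Its samples did not overlap either, and it fell by 1.67 (standard error 0.295, adjusted p = 9.00e-05). MT2A, with the highest FPKM of the family, had 245, 524, 310.1 and 251 FPKM at 6 h and 186, 204, 210 and 169 at 12 h, a fall of 0.72 (adjusted p = 0.00255). MT1M fell by 0.98 (adjusted p = 0.00628). Thus 4 of the 7 metallothioneins tested were called lower and none higher, beside 12.1% called lower over all genes. The list median was -0.72 beside -0.0031 for all genes. MT1F, MT1G and MT1H differed by -0.31, -0.52 and -0.42 and were not called (adjusted p = 0.152, 0.0513 and 0.0621).

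Replicate 2 was the highest sample for each of these genes. Without it MT1X differed by -1.21 (adjusted p = 7.93e-07) and MT1E by -1.30 (adjusted p = 0.000482), while MT2A (-0.48, adjusted p = 0.0163) and MT1M (-0.54, adjusted p = 0.0309) were no longer called. With only the 8 CBD samples in the fit, MT1X was the 1 metallothionein still called (adjusted p = 0.00749). The members are near-identical in sequence and their reads can be shared in the counting, so the split among them is uncertain.

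The zinc transporters moved with far less spread. SLC30A1 (chr1:211744910-211752503) had 23.3, 26.3, 24.3 and 24.9 FPKM at 6 h and 11.8, 11.7, 12.1 and 12.4 at 12 h. The 2 times lay well apart, and the fall was 0.98 on the log2 scale (standard error 0.0366, adjusted p = 1.45e-16). Vehicle samples held 6.25 to 6.99 FPKM at 6 h and 5.69 to 6.01 at 12 h, so that SLC30A1 was 1.78 above vehicle at 6 h and 0.93 above it at 12 h. SLC39A10 (chr2:196440701-196602426) ran the opposite way, with 3.31, 3.60, 3.49 and 3.77 FPKM at 6 h and 9.54, 9.37, 9.08 and 9.93 at 12 h. It was 2.68-fold higher at 12 h (log2 difference 1.21, standard error 0.0440, adjusted p = 1.45e-16), and yet still below the 15.6 to 17.4 FPKM of vehicle at 12 h. The distance from vehicle was -1.78 at 6 h and -0.72 at 12 h. Of the 17 zinc transporter genes tested with MTF1, SLC39A10 was the 1 called higher and 4 were called lower. The shares over all genes were 11.7% and 12.1%. Besides SLC30A1, the lower genes were SLC39A7, SLC30A6 and SLC30A5, with differences of -0.13, -0.11 and -0.10. MTF1 itself had 2.43 ± 0.096 FPKM at 6 h and 2.34 ± 0.081 at 12 h (mean ± SD, n = 4) and was not called (adjusted p = 0.31).

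**Figure D2:**
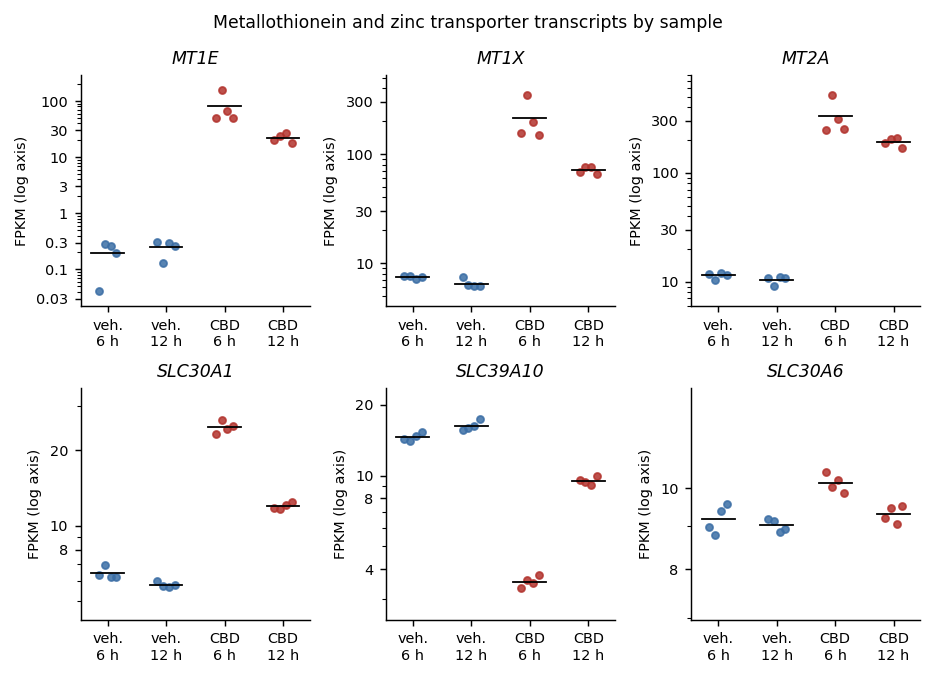
FPKM of 3 metallothioneins and 3 zinc transporters (log axis) in the 4 samples each of vehicle and CBD at 6 and 12 h. Points are samples and bars are means. MT1X, MT1E and SLC30A1 lie lower in every CBD sample at 12 h than at 6 h, and SLC39A10 lies higher, while none of these 4 reaches the vehicle values.

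Sterol synthesis transcripts were higher at 12 h than at 6 h along nearly the whole pathway. Of 21 genes tested, 19 were called higher and none lower, with a median difference of 0.28, beside 11.7% called higher and a median of -0.0031 over all genes. In vehicle the same 21 genes had a median of -0.04 and none was called. HMGCS1 (chr5:43287572-43313614), which makes HMG-CoA, had 128, 118, 126 and 126 FPKM at 6 h and 202, 186, 177 and 202 at 12 h. The times did not overlap, and the difference was 0.62 (standard error 0.0397, adjusted p = 1.05e-11). Its vehicle samples stayed between 78.8 and 88.9 FPKM at both times. LSS, lanosterol synthase, went from 45.4, 45.0, 46.7 and 40.5 FPKM to 74.6, 72.4, 67.8 and 73.2, a rise of 0.69 (adjusted p = 7.33e-11). MVD, mevalonate diphosphate decarboxylase, rose by 0.54 (40.4, 42.6, 43.1 and 39.0 FPKM at 6 h; 62.3, 59.7, 57.5 and 61.5 at 12 h). FDFT1, squalene synthase, rose by 0.51, from 204 ± 2.87 to 291 ± 7.73 FPKM. TM7SF2 (0.50), DHCR7 (0.48), ACAT2 (0.47), CYP51A1 (0.40), FDPS (0.40), HSD17B7 (0.29), IDI1 (0.28), SQLE (0.27), MSMO1 (0.25), MVK (0.23), SC5D (0.22), NSDHL (0.19) and EBP (0.17) also rose. The 2 genes not called were PMVK, phosphomevalonate kinase, at -0.09 (adjusted p = 0.209), and LBR, which also has a structural role in the nuclear envelope, at 0.00 (adjusted p = 0.893).

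Among the regulators of the pathway fewer genes were called. Of 8 genes of SREBP feedback and lipoprotein uptake tested, 4 were called higher and none lower (median 0.14). Of all genes tested, 11.7% were called higher. STARD4, a sterol carrier, rose by 0.32, INSIG1, which holds SREBP in the endoplasmic reticulum, by 0.26, SREBF2, the factor for sterol genes, by 0.25 and MYLIP, a ubiquitin ligase, by 0.11. SREBF1 differed by 0.16 and was not called (adjusted p = 0.0339). Of 11 genes of cholesterol transport, efflux and storage, 3 were called higher and none lower. They were ABCG1, a sterol exporter (0.32, and 0.24 in vehicle), LIPA, the lysosomal acid lipase (0.23), and OSBPL1A (0.15).

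Fatty acid synthesis and desaturation moved in the same direction. Of 14 genes tested, 12 were called higher and none lower, beside 11.7% called higher over all genes. The list median was 0.27 in CBD and 0.02 in vehicle. ACSS2 (chr20:33459949-33515765), acetyl-CoA synthetase, had 6.36, 6.40, 6.47 and 6.25 FPKM at 6 h and 13.3, 11.4, 11.1 and 11.8 at 12 h. It rose by 0.80 (standard error 0.0383, adjusted p = 2.23e-14), and vehicle held 5.05 to 5.53 FPKM. SCD, the stearoyl-CoA desaturase, rose by 0.34, from 280.4 ± 11.4 to 356 ± 13.6 FPKM. FADS2 (0.34), ACSL1 (0.33), ACSL3 (0.31), ACACA (0.28), ELOVL6 (0.28), FADS1 (0.27), FASN (0.26), ACLY (0.24), ME1 (0.22) and ACACB (0.10) rose too, and ELOVL1 and ELOVL5 were not called. FABP3 (chr1:31838100-31849697), outside this list, had the largest rise under the naming rule, from 9.85, 10.2, 10.1 and 8.96 FPKM at 6 h to 26.8, 24.8, 22.0 and 24.4 at 12 h. The difference was 1.24 (standard error 0.0607, adjusted p = 3.32e-14), and in vehicle 0.27 (adjusted p = 0.00454). OLMALINC, a noncoding transcript that lies 8272 bases from SCD, rose by 0.85 (24.2 ± 0.70 to 44.4 ± 1.70 FPKM). ACSS2 overlaps GGT7 on the opposite strand. The methods describe the runs as first-stranded, the labels name a different library kit, and whether the counting used strand is not given in the sources used here, so reads are not settled between the genes for ACSS2 or for DNAJB1, KIZ and ZBED3, which also overlap other genes.

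**Figure D3:**
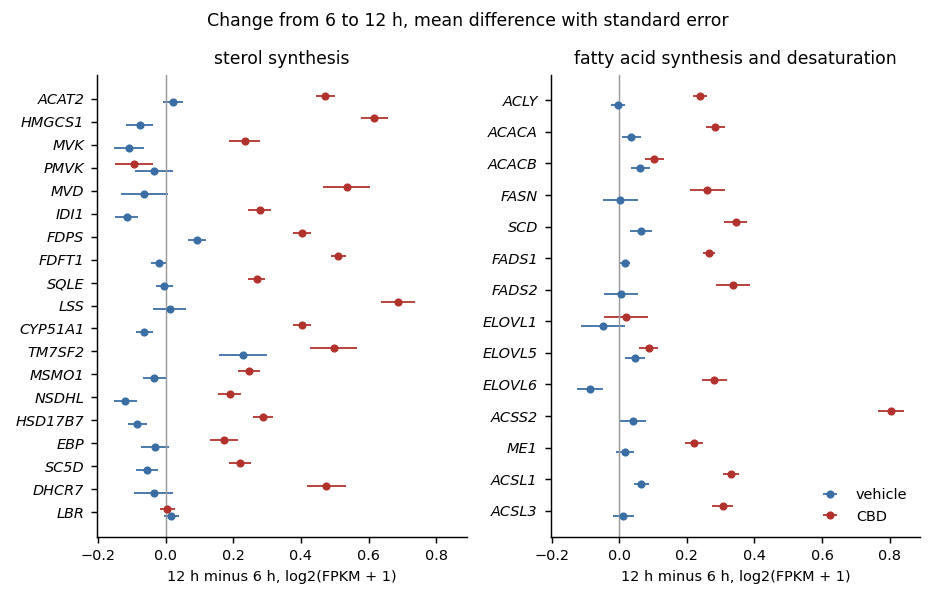
Difference between 12 and 6 h in log2(FPKM + 1) for genes of sterol synthesis (left) and of fatty acid synthesis and desaturation (right), in CBD (red) and vehicle (blue). Points are differences of means of 4 against 4 samples and bars their standard errors. Most CBD points lie right of 0, LSS (0.69) and ACSS2 (0.80) farthest, while PMVK lies at -0.09, LBR at 0.00 and ELOVL1 at 0.02.

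Cytosolic heat shock transcripts split by member. HSPA1B (chr6:31795515-31798031), an inducible HSP70, had 31.5, 29.3, 30.4 and 32.8 FPKM at 6 h and 16.3, 15.99, 16.9 and 16.9 at 12 h. All 12 h samples lay below all 6 h samples, with a fall of 0.87 (standard error 0.0401, adjusted p = 1.43e-14). In vehicle it fell by 0.34, from 20.6 to 22.2 FPKM down to 16.4 to 17.4, and the difference between CBD and vehicle was 0.50 at 6 h and -0.04 at 12 h. HSPA1A fell by 0.66, and in vehicle by 0.32, from 9.80 to 10.1 FPKM down to 7.04 to 8.33. As it is near-identical to HSPA1B the split between them is uncertain. DNAJB1, an HSP40 that works with HSP70, had 94.1, 92.9, 93.1 and 90.8 FPKM at 6 h and 59.6, 61.1, 59.1 and 62.1 at 12 h, and fell by 0.61 (adjusted p = 2.23e-14). CHORDC1, an HSP90 partner, fell by 0.23. In contrast HSPD1, the mitochondrial chaperonin, HSP90AB1 and HSPA8, the constitutive HSP70, rose by 0.17, 0.16 and 0.13. In all, 4 of 19 tested were called lower and 3 higher, beside 12.1% and 11.7% over all genes, and the list median was 0.01. In vehicle HSPA1A, HSPA1B and DNAJB1 were called lower and none higher.

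The endoplasmic reticulum chaperones fell more evenly. Of 23 genes of this list, 13 were called lower and 1 higher, with a median of -0.15, beside 12.1% called lower over all genes. HSPA5 (chr9:127997132-128003661) had 99.1, 101, 97.8 and 109 FPKM at 6 h and 55.2, 56.8, 56.3 and 60.5 at 12 h. It fell by 0.82 (standard error 0.0453, adjusted p = 4.86e-13). The difference between CBD and vehicle was 0.16 at 6 h and -0.48 at 12 h. SDF2L1, a partner of HSPA5, fell by 0.50 (16.9, 15.9, 17.1 and 18.0 FPKM to 12.6, 11.2, 11.2 and 11.8). PDIA4, a disulfide isomerase, fell by 0.34 (35.1, 35.0, 34.5 and 35.4 FPKM to 27.4, 28.2, 26.8 and 27.3). XBP1, a transcription factor of the unfolded protein response, fell by 0.33 (55.6, 58.9, 55.9 and 55.1 FPKM to 43.6, 46.3, 47.0 and 42.2). SEC61B, CRELD2, HYOU1, CALR, SEL1L, DNAJB11, DNAJC3, P4HB and PDIA3 were lower by 0.12 to 0.30. CANX, the membrane-bound lectin chaperone, rose by 0.13, as it did in vehicle (0.13). HSP90B1, the HSP90 of this compartment, had overlapping values (166 to 215 FPKM at 6 h and 184 to 202 at 12 h) and was not called.

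**Figure D4:**
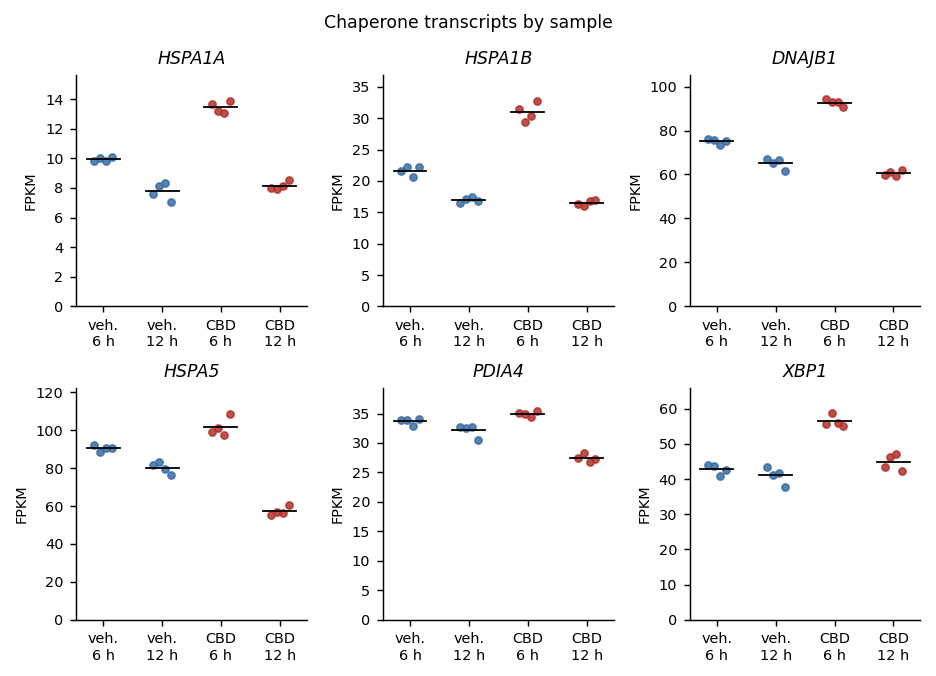
FPKM (linear axis from 0) of HSPA1A, HSPA1B, DNAJB1, HSPA5, PDIA4 and XBP1 in the 4 samples each of vehicle and CBD at 6 and 12 h. Points are samples and bars are means. All 6 are lower in CBD at 12 h than at 6 h, and HSPA5 and PDIA4 then lie below every vehicle sample at 12 h.

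Transcripts of DNA replication made up the list with the largest share of lower calls. Of 35 genes of G1 and S phase tested, 27 were called lower and none higher, beside 12.1% lower and 11.7% higher over all genes. The list median was -0.17 in CBD and -0.08 in vehicle. In vehicle 9 of the 35 were called lower, beside 1.65% of all genes. UHRF1, which helps to maintain DNA methylation after replication, had 52.9, 53.0, 55.8 and 52.9 FPKM at 6 h and 38.0, 39.3, 37.7 and 40.0 at 12 h, a fall of 0.46. RRM2, a subunit of ribonucleotide reductase, had 87.2, 89.0, 86.9 and 85.8 FPKM at 6 h and 59.5, 65.5, 62.7 and 68.9 at 12 h, a fall of 0.44 (adjusted p = 1.10e-09). The samples of the 2 times did not overlap in either gene, as in most genes called. Vehicle also fell for both, by 0.25 and 0.16. MCM5, part of the replicative helicase, fell by 0.40 (98.2 ± 1.67 to 74.1 ± 2.00 FPKM, and by 0.23 in vehicle), and TK1, thymidine kinase, by 0.34. The test of the difference between CBD and vehicle called RRM2 (-0.27, adjusted p = 0.00133) and RFC2 (-0.20, adjusted p = 0.0015) of the 35. Over all genes 0.895% were called more negative. The list median of the difference between the changes was -0.10, beside 0 over all genes. Genes of G2 and mitosis showed no such run of calls. Of 36 tested, 2 were called lower (BIRC5, or survivin, -0.24, and CCNA2, a cyclin, -0.13) and 2 higher (KIF20A and PRC1, midzone proteins, 0.13 each). Of 19 genes listed as CDK inhibitors and growth arrest genes, with some cyclins, 5 were called higher and 6 lower. Among those called, SESN3 (0.27), CCND1 (-0.23), BTG2 (0.22) and CCND3 (-0.22) had the largest differences. CCND1 and CCND3 are D-type cyclins, which promote the cell cycle and do not arrest it.

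The nuclear-encoded respiratory chain and the proteasome were lower by small amounts in many members. Of 76 respiratory chain genes, 31 were called lower and none higher, beside 12.1% called lower over all genes. The list median was -0.12 in CBD and -0.01 in vehicle. NDUFS6 (-0.30), NDUFB2 (-0.29), NDUFB1 (-0.27) and NDUFC1 (-0.27), all of complex I, had the largest falls. NDUFB2 had 206, 218, 202 and 191 FPKM at 6 h and 156, 170, 169 and 169 at 12 h, a difference that is clear of the spread but small. The test against vehicle called 2 of the 76 more negative, ATP5J (-0.21) and NDUFB5 (-0.18), beside 0.895% over all genes. The list median of the difference between the changes was -0.12. Of 31 proteasome subunits, 15 were called lower and none higher (median -0.09), PSMB6 and PSMB5, the catalytic core subunits, by 0.20 and 0.19, and PSMD8 and PSMD11 of the cap by 0.16 and 0.15. Without CBD replicate 2 at 6 h, 8 proteasome subunits were called lower, and with only the 8 CBD samples in the fit 4 were. Of 79 cytosolic ribosomal proteins, 7 were called higher and 2 lower, both under the shares over all genes. Among those called, RPL13A (0.21), RPL5, RPL39 and RPL7A (0.16 each) had the largest differences. The calls of RPL5, RPL39 and RPL7A were lost in 4, 5 and 10 of the alternatives, with an adjusted p of up to 0.0201, 0.458 and 0.0965 in limma.

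Clock genes rose in most members. Of 16 tested, 10 were called higher and 1 lower (median 0.15), beside 11.7% higher and 12.1% lower over all genes. PER3, a repressor of the clock, had 4.55, 4.42, 4.50 and 4.85 FPKM at 6 h and 6.40, 6.00, 6.05 and 6.22 at 12 h, a rise of 0.36 (standard error 0.0259, adjusted p = 7.87e-11). Its vehicle samples lay between 3.95 and 4.19 FPKM at 6 h and between 3.67 and 3.87 at 12 h, so that the direction in vehicle was the other way, though not called. PER1 rose by 0.33 (8.07, 7.49, 8.09 and 7.40 FPKM to 10.2, 9.95, 9.93 and 9.93), CIART by 0.32, BHLHE41 by 0.29 and CRY1 by 0.28. ARNTL, the activator that these proteins oppose, fell by 0.38, from 1.61 to 1.69 FPKM down to 0.958 to 1.07. The test of the difference called PER3 (0.44), PER1 (0.30), CRY1 (0.24) and BHLHE41 (0.19) of this list.

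Signalling and identity genes moved in part with vehicle. Their counts stand beside 11.7% called higher and 12.1% called lower over all genes. Of 15 immediate-early factors, 7 were called higher and none lower, JUND (0.30), ARC (0.28), JUN (0.26) and IER3 (0.23) with the largest rises, and none was called in the test against vehicle. Of 16 ERK feedback genes, 3 were called higher and 1 lower, near the shares over all genes. The test against vehicle called 2 of the 16 more positive with CBD, beside 1.43% over all genes. ETV1, an ETS factor, rose by 0.36 and PHLDA1 by 0.28, the latter also in vehicle by 0.26, and DUSP4, a phosphatase, fell by 0.10. Of 16 adrenergic identity factors, 4 were called higher and 2 lower. MYCN, the amplified driver, had 1960, 1814, 1930.0 and 1832 FPKM at 6 h and 2307, 2253, 2205 and 2174 at 12 h, a rise of 0.25 (adjusted p = 7.74e-06), and its difference from the change in vehicle was not called (0.17, adjusted p = 0.043). PHOX2A fell by 0.24, while KLF7 rose by 0.15. Of 18 catecholamine and granule genes, 2 were called higher and 3 lower, near the shares over all genes. Among them were SLC6A2, the noradrenaline transporter (-0.35), DBH, which makes noradrenaline (-0.28), and SLC18A2, the vesicular transporter (0.27). Of 24 neuronal cytoskeleton genes, 7 were called higher and 2 lower, with STMN3 at -0.27, MAPT at 0.21, DCX at 0.17 and DPYSL3 at 0.16. MAPT, DCX and DPYSL3 rose in vehicle too, by 0.17, 0.18 and 0.12.

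Of 18 hypoxia markers, 7 were called higher and 2 lower in CBD, with a median of 0.12. The shares over all genes were 11.7% higher and 12.1% lower. In vehicle 9 were called higher and none lower, beside 3.22% higher over all genes. Their median was 0.21 in vehicle, and the median difference between the changes was -0.11. VEGFA, the vascular growth factor, rose by 0.44, KDM3A by 0.39 (0.42 in vehicle) and ANKRD37 by 0.37, whereas ADM fell by 0.28. NDRG1, of the same list, was not called in CBD (3.27, 3.18, 3.10 and 2.80 FPKM at 6 h; 2.23, 2.63, 2.73 and 2.50 at 12 h; adjusted p = 0.0351) but rose by 0.36 in vehicle, from 3.06, 4.02, 4.89 and 4.22 to 5.07, 5.72, 5.09 and 5.82. The difference between these changes was called (-0.57, adjusted p = 0.00206). Vehicle 6 h replicate 1 was the lowest of its group for NDRG1, VEGFA (18.5 against 22.7 to 24.9 FPKM) and KDM3A (7.73 against 8.72 to 9.98). It was not the lowest for ANKRD37 or ADM. Without this sample 328 genes were called in vehicle over all genes, and its part in the calls of this list was not tested. Of 19 glycolysis genes, 2 were called higher and 3 lower. ALDOC rose by 0.49 (0.41 in vehicle), while LDHA, lactate dehydrogenase, fell by 0.30, TPI1 by 0.16 and PGAM1 by 0.13, and those 3 were also called in the test of the difference. Of 6 glucose-sensing arrestins, ARRDC4 was called higher (0.15) and none lower.

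Amino acid and stress lists moved little. Their counts stand beside 11.7% called higher and 12.1% called lower over all genes. Of 17 genes of the ATF4 and CHOP response, regulators and targets together, EIF2AK4, a kinase that senses uncharged tRNA, was called higher (0.13) and none lower. Of 17 genes of serine, one-carbon and asparagine synthesis, 3 were called higher and 2 lower. ASS1, argininosuccinate synthetase, had 43.7, 41.9, 41.8 and 40.0 FPKM at 6 h and 61.3, 59.6, 63.6 and 51.5 at 12 h and rose by 0.48 (adjusted p = 2.17e-08). ASNS, asparagine synthetase, rose by 0.27, while PSAT1 and PSPH fell by 0.14 and 0.10. Of 12 amino acid transporters, SLC7A6 (-0.21) and SLC7A1 (-0.18) were called lower and none higher. Of 20 cytosolic aminoacyl-tRNA synthetases, 4 were called higher and 2 lower, with SARS at 0.16, IARS at 0.14, QARS at 0.12 and WARS at -0.12. Of 22 NFE2L2 targets, 5 were called higher and 2 lower, PIR (0.32, and 0.25 in vehicle), KEAP1 (-0.29), ME1 (0.22) and ABCC4 (0.18) with the largest differences. Of 17 genes of heme and iron handling, 1 was called higher and 4 lower, led by TFRC, the transferrin receptor, which fell by 0.22.

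Of 34 lysosomal enzymes and proton pump genes, 3 were called higher and 8 lower, beside 11.7% and 12.1% over all genes. LAMP1 (-0.27), ATP6V0C (-0.24) and ATP6V0D1 (-0.21) were among the larger differences. Of 29 autophagy genes, 4 were called higher and 2 lower, near or under the shares over all genes. Among them were TFEB (0.28), ATG2A (-0.27), OPTN (0.25) and CALCOCO2 (0.19). In the BCL2 family the counts were also near those shares. Of its 13 genes, BBC3 (0.32) was called higher and BAK1 (-0.22) and MCL1 (-0.08) lower. These calls were lost in 10, 7 and 8 of the alternatives, with an adjusted p of up to 0.135, 0.0444 and 0.11 in limma. Of 15 snoRNA host and related noncoding transcripts, 5 were called higher and 1 lower. GAS5, which builds up when growth slows, had 221, 233, 215 and 222 FPKM at 6 h and 296, 290.2, 308 and 273 at 12 h and rose by 0.39 (adjusted p = 3.50e-08). SNHG7 rose by 0.26 and ZFAS1 by 0.13, and SNHG15 fell by 0.18.

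The genes whose change from 6 to 12 h differed most between CBD and vehicle were mainly those described above. Of the 294 called, 271 were also called in CBD and 23 were not. For 268 of the 271 the absolute change was larger in CBD than in vehicle, a count that requiring a call in CBD favours. GRK5 and LOC392232 were among the exceptions. The differences between the changes were 1.06 for SLC39A10, 0.97 for FABP3, 0.76 for ACSS2, 0.69 for HMGCS1, 0.68 for LSS, 0.65 for OLMALINC, 0.65 for LBHD1 and 0.60 for MVD on the positive side. On the negative side they were -1.29 for MT1X (adjusted p = 0.00265), -0.85 for SLC30A1 (adjusted p = 1.39e-11), -0.64 for HSPA5, -0.57 for NDRG1, -0.53 for HSPA1B, -0.52 for TM4SF4, -0.43 for IGFBP4 and -0.40 for DNAJB1. MT1E (-1.74, adjusted p = 0.0121) and MT2A (-0.60, adjusted p = 0.167) were not called in this test. By list, it called 17 of 21 sterol genes, 10 of 14 fatty acid genes and 4 of 16 clock genes as more positive with CBD. It also called 2 of 8 SREBP feedback genes and 2 of 16 ERK feedback genes more positive. The share over all genes was 1.43%. As more negative the test called 5 of 23 endoplasmic reticulum genes, 3 of 19 heat shock genes, 3 of 19 glycolysis genes and 1 of 7 metallothioneins. It also called 2 of 35 replication genes and 2 of 76 respiratory chain genes, and 1 or none in each other list. The share called more negative was 0.895% over all genes. In 4 genes the calls in CBD and in vehicle had opposite signs: CLU (-0.15 and 0.13), GRK5 (0.10 and -0.10), KIAA0907 (0.16 and -0.13) and LRP8, a lipoprotein receptor (0.12 and -0.12).

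Other transcripts among the 12 largest rises and falls had no place in the lists. CCDC136 rose by 0.64 (11.6, 11.03, 11.3 and 12.3 FPKM to 20.0, 18.3, 19.1 and 16.9), LBHD1 by 0.54, KIZ, a centrosome protein, by 0.53 and SH2D3C, an adaptor protein, by 0.53. ANKHD1-EIF4EBP3 (0.55) is a readthrough entry that shares exons with its neighbours, and LBHD1 overlaps C11orf98 and UQCC3, so their reads may belong to other genes. TLX2, a homeobox factor of the neural crest, fell by 0.64 (50.6, 55.5, 60.3 and 52.9 FPKM to 32.1, 33.7, 34.7 and 38.5). It fell by 0.50 in vehicle as well, and the difference was not called (adjusted p = 0.606). LANCL2 fell by 0.53 (0.21 in vehicle), ZBED3 by 0.52 and LIX1 by 0.51 (0.39 in vehicle). IGFBP4, an IGF binding protein, had 16.7, 17.2, 18.0 and 15.4 FPKM at 6 h and 11.8, 11.7, 11.2 and 12.0 at 12 h, and fell by 0.49, whereas its vehicle samples had 15.7 to 18.4 FPKM over both times.

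**Figure D5:**
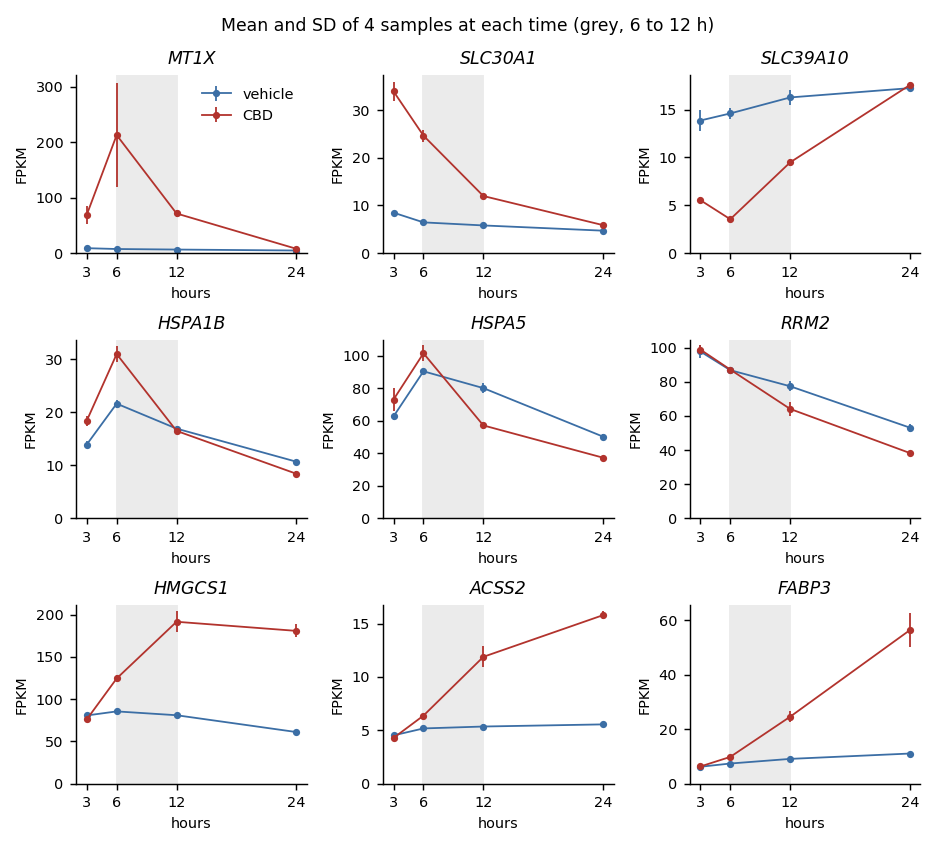
Mean FPKM of 9 transcripts at 3, 6, 12 and 24 h in CBD (red) and vehicle (blue), with bars for the SD of 4 samples, on linear axes from 0. The grey band marks 6 to 12 h. MT1X peaks at 6 h and SLC39A10 is lowest there, while ACSS2 and FABP3 go on rising to 24 h.

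Set in the whole time course, the 6 h and 12 h samples stood at different points for different systems. The mean of MT1X in CBD was highest at 6 h (69.0, 213, 71.5 and 7.86 FPKM in order of time). SLC30A1 was highest at 3 h (34.0 FPKM) and lower at each later time (24.7, 12.0 and 5.87). SLC39A10 was lowest at 6 h (5.54, 3.54, 9.48 and 17.6 FPKM in order of time), and at 24 h its mean lay beside the 17.2 of vehicle. HSPA1B and HSPA5 were highest at 6 h (31.0 and 102 FPKM) and lowest at 24 h (8.41 and 37.3). HMGCS1 was near its highest mean at 12 h (192 FPKM, and 181 at 24 h), whereas ACSS2 (15.8 FPKM) and FABP3 (56.3) were highest at 24 h. These means are given as levels only, since the other times were not compared here.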

How the data were processed

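Polyadenylated RNA of 8 groups of SK-N-BE(2) cultures, CBD or vehicle at each of 4 times, was sequenced with 4 samples per group. The methods describe treatments in quadruplicate, and p-values measure the spread between these samples. The authors trimmed single 50-base reads with Trimmomatic (version 0.36), aligned them to hg19 with TopHat (TopHat2 version 2.2.1 in the submitters' processing notes) and estimated FPKM per gene and sample with Cufflinks. The deposited FPKM hold 22610 entries. The authors' table of Cuffdiff log2 fold changes and q-values at each time was not used.

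Here log2(FPKM + 1) was fitted with limma (version 3.58.1, R version 4.3.3) for the 12621 genes with a mean of at least 1 FPKM over the 32 samples, with 8 group means, which share 1 estimate of the spread, and an intensity trend in the empirical Bayes step. Differences on this scale understate the change of genes with low FPKM. Adjustment was by Benjamini-Hochberg within each comparison, with a threshold of 0.01. In simulated data of this comparison, 96.5% of 200 genes with a log2 change of 0.5 were recovered among 12621, with 1 false call. Recovery of smaller changes was not tested, and 38 of the 3004 called genes reached 0.5. The share of false calls among the 3004 was not tested. Relative depth came from 1414 genes, for which 82.0% of 5061 ratios of low values lay within 10% of a whole number.

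The comparison, its members, the 33 gene lists and the 5 marker lists were chosen with earlier results of these data known, and lists are described by counts and medians with no set test. Named genes were the 12 largest rises and 12 largest falls among called genes without overlap, with a mean of at least 2 FPKM and no short RNA entry, the 8 largest differences from vehicle in each direction, and up to 4 called members of each list. The largest differences from vehicle were likewise limited to genes without overlap in CBD or in vehicle. Members whose lack of a call was worth giving, and the genes in the last part, were added after their values were seen. The patterns of the heat shock core and the ER stress element were added after the data were seen. Gene positions are from GENCODE on GRCh37, and promoters from RefSeq on GRCh38.p14. Permutation tests used scipy (version 1.17.1). Alternatives were another value added before the logarithm, another filter, scaling, threshold or spread model, fewer samples in the fit, a replicate block, no short RNA entries, and each sample left out. Some members of the lists are counted but not reported by name here.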

Additional observations from a re-analysis of the deposited data

Results flagged for a closer look

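MT1E in CBD replicate 2 at 6 h, at 157 FPKM, stood far from the other 3 samples of its group (50.7, 67.5 and 49.2), a gap of 0.83 of the group's range. Of 54 groups of 4 examined in this way it was the 1 that stood out, and chance gives about 1 in 20. The same sample was also highest for the other 6 metallothioneins, while SLC30A1 (26.3 FPKM, against 23.3 to 24.9) was highest in it by a small margin.

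The change from 6 to 12 h differed between CBD and vehicle for 294 genes by limma's test of the difference at an adjusted p under 0.01. Among the named genes, the difference between the changes was positive for SLC39A10 (1.06), FABP3 (0.97), ACSS2 (0.76), HMGCS1 (0.69), LSS (0.68), OLMALINC (0.65), LBHD1 (0.65) and MVD (0.60). For each of these all 4 CBD samples at 12 h were higher than all 4 at 6 h. Lack of overlap in CBD or in vehicle was a condition for naming them, so it is no further support. LBHD1 (4.66 to 6.28 against 3.37 to 3.76 FPKM) overlaps 2 other genes. The difference was negative for MT1X (-1.29), SLC30A1 (-0.85), HSPA5 (-0.64), NDRG1 (-0.57), HSPA1B (-0.53), TM4SF4 (-0.52), IGFBP4 (-0.43) and DNAJB1 (-0.40). NDRG1 is the 1 among them that was not called in CBD alone, its difference resting also on the rise of 0.36 in vehicle.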

How the results depend on the processing

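The count of 3004 genes was 1452 with only the 8 samples compared in the fit and 4561 at an adjusted p under 0.05, and 2309 (without CBD 12 h replicate 1) to 3109 with each sample left out. For vehicle the 615 calls were 132 and 1346 under the same settings and 328 (without vehicle 6 h replicate 1) to 497 with each sample left out (401 and 390 without vehicle 12 h replicates 3 and 4). The 294 genes that differed from vehicle were 799 at the looser threshold, and 183 (without CBD 12 h replicate 1) to 366 (without CBD 12 h replicate 4). The 38 genes of at least 0.5 were 86 with 0.1 FPKM added and 21 with 5 FPKM added, and 31 to 49 with each sample left out.

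Calls of lower metallothioneins (4) were 1 with only the 8 samples and 2 to 4 with each sample left out, of lower proteasome subunits (15) were 4, and 8 to 13, and of lower respiratory chain genes (31) were 20, 49 at the looser threshold, and 21 to 34. The smallest counts with a sample left out were those without CBD 6 h replicate 2. The counts of the sterol, fatty acid, clock, heat shock, endoplasmic reticulum and replication lists stayed within 1.5 times under every alternative run. Of 166 called named genes, 109 were called in every alternative, 31 were lost in 1 or 2 and 26 in 3 or more, and none changed sign. Among those lost in 7 or more were PSPH, RPL7A, MT1M, SLC39A7, OSBPL1A, ATP6V0C and ZFAS1. Of the 12 rises and 12 falls, 21 were called in every alternative, the exceptions being MT1E, MT2A and ANKHD1-EIF4EBP3.

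The share of higher calls was 61.6% in the difference from vehicle and 53.4% and 53.7% under median-ratio scaling and quantile normalization, and 66.2% in vehicle, where it was 72.7% under median-ratio scaling, 79.6% under quantile normalization and 81.8% with only the 8 samples compared. Replicate numbers did not pair the samples (correlations of deviations from -0.032 to 0.056). With a replicate block 3352 genes were called in CBD and 372 in the difference from vehicle. Depth limits the low transcripts most, and read counts are unknown.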

Other observations

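The genes below lie outside the lists and were picked singly after their values were seen, so they speak for no group. AACS, which activates acetoacetate for lipid synthesis, rose by 0.48 (10.97 ± 0.36 to 15.7 ± 0.61 FPKM, mean ± SD, n = 4, 0.08 in vehicle). PNPLA3, a lipid droplet protein, rose by 0.42 (1.85 ± 0.12 to 2.80 ± 0.081 FPKM, -0.00 in vehicle) and GGPS1, which makes geranylgeranyl diphosphate, by 0.40. ACSL4, which activates long polyunsaturated fatty acids, and PCYT2, of phosphatidylethanolamine synthesis, rose by 0.30 each. LPIN1, a phosphatidic acid phosphatase, rose by 0.27 and MMAB, a cobalamin enzyme whose gene lies beside MVK, by 0.22.

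KLF11, a transcription factor, rose by 0.50 (8.02, 7.58, 7.81 and 7.67 FPKM to 11.1, 11.7, 11.5 and 11.4), and by 0.21 in vehicle. RET, a receptor kinase of sympathetic neurons, rose by 0.28 (6.54 ± 0.24 to 8.18 ± 0.22 FPKM) and differed from vehicle (0.35). SERPINH1, the collagen chaperone HSP47, had 27.99, 29.1, 29.0 and 28.4 FPKM at 6 h and 21.5, 21.8, 21.8 and 21.4 at 12 h. It fell by 0.39 to near its vehicle level of 20.4 to 20.8 FPKM. The splicing regulators TRA2A and TRA2B fell by 0.39 and 0.28, against -0.08 and -0.03 in vehicle, neither called. THY1, a surface glycoprotein of neurons, fell by 0.41 and IGFBP5, an IGF binding protein, by 0.43, and both differed from vehicle (-0.29 and -0.28).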
